A study of Mus musculus with 15 samples.

Results

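Mature M2 thymocytes were compared with Tak1-deficient thymocytes of the preceding SM&M1 stage, in 3 arrays of each, which are 6 of the 15 arrays of the series. Both groups were chosen by their sample labels alone. M2 cells were CD4 single-positive thymocytes with Qa2 and without CD69 on their surface, sorted from Rag2GFP mice, in which the reporter is carried by T cells of recent origin. Tak1-deficient SM&M1 cells were CD4 single-positive thymocytes with CD69 and without Qa2, sorted from mice with floxed Tak1 and a Cre driven by CD4 (Tak1f/f CD4Cre), so deletion begins in thymocytes once they express CD4. All mice were young adults on the C57BL/6 background. The other 9 arrays held wild-type SM&M1 cells from Rag2GFP mice, and PreDP and PostDP double-positive thymocytes from B2m-/- mice, with 3 arrays of each. A dump channel for NK1.1, CD25 and GL3 and a Rag2-GFP gate, which remove natural killer T, regulatory, γδ and recirculating T cells, were described for the Rag2GFP sorts and not for the Tak1-deficient one. Stage, Tak1 deletion and mouse line with its gates therefore differed together between the groups and cannot be told apart in these data.

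TAK1 is the kinase encoded by Map3k7. Downstream of antigen, cytokine and TNF-family receptors it activates the IκB kinases, which free NF-κB to enter the nucleus, and the MAP kinases JNK and p38, which act on AP-1 factors such as JUN. CD4 single-positive thymocytes mature in the medulla: they lose the marks of recent positive selection, gain MHC class I molecules including Qa2, become able to survive and divide in the periphery, and gain S1PR1, the receptor by which they leave the thymus. The comparison spans the distance from Tak1-deficient cells of the earlier stage to the stage that is ready to leave.

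The values are linear array signals analysed as log2(signal + 16), and levels below are on that log2 scale. Every array had a trimmed mean signal of 500. The array of Tak1-deficient replicate 2 stood apart. Its median signal was 167.8, against 80.52 to 121.5 in the other 14, and its Actb probes gave a 3′ to 5′ ratio of 1.62, where the other arrays gave 1.02 to 1.18. It correlated at 0.818 and 0.832 with the other Tak1-deficient arrays, which correlated at 0.976 with each other. Its sex-linked genes also differed: Xist was 14.01 in replicate 2 and 7.54 and 7.42 in replicates 1 and 3, while the Y-linked Eif2s3y was 4.33 in replicate 2 and 11.38 and 11.49 in the others. All M2 arrays held both transcripts at high level, with Xist at 13.06 to 13.77 and Eif2s3y at 9.85 to 10.98. Sex composition therefore differed between the groups and within the Tak1-deficient one, and its part in the results was not tested. Values are given with all arrays, and also without Tak1-deficient replicate 2 for genes whose call changed or whose fold moved by over 1.5 times.

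Map3k7 itself was 9.95, 10.26 and 10.10 in the M2 arrays and 4.76, 6.07 and 5.35 in the Tak1-deficient arrays. The groups did not overlap, and the M2 mean was higher by 4.71 ± 0.29 (log2, SE), or 26.2-fold, with an adjusted p of 1.02e-06 in limma. Where the probe set lies relative to the deleted part of the gene was not examined. When its probe sets were averaged, the difference was 2.66. The labelled sorts were checked next. Qa2 is encoded by genes of the H2-Q family that share probe sets. The probe set for H2-Q9 and H2-Q7 was 13.68, 13.90 and 14 in M2 and 8.92, 7.66 and 9.79 in Tak1-deficient cells, and that for H2-Q6 and H2-Q8 was 11.80, 11.99 and 12.17 against 9.64, 9.71 and 9.54. Neither pair of groups overlapped, and both were higher in M2, by 5.07 ± 0.44 (limma adjusted p = 1.19e-05) and 2.36 ± 0.16 (limma adjusted p = 1.17e-06). The probe set for H2-Q2 ran the other way, with a difference of -2.55 ± 0.52 (limma adjusted p = 0.00712), or -3.24 without Tak1-deficient replicate 2.

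Cd69, the other sort marker, was 11.64, 11.67 and 11.32 in M2 and 12.71, 11.09 and 12.91 in Tak1-deficient cells. The groups overlapped because replicate 2 lay below every M2 array. The difference of -0.69 ± 0.36 did not pass with all arrays (limma adjusted p = 0.220), and without that array it was -1.26 and passed (limma adjusted p = 0.000368). Cd4 was 11.82, 11.95 and 12.18 in M2 and 11.38, 11.50 and 11.02 in Tak1-deficient cells, without overlap. The difference of 0.68 passed (limma adjusted p = 0.0296) but not without M2 replicate 2 (0.0784), M2 replicate 3 (0.116) or Tak1-deficient replicate 3 (0.0794), nor with each array centred on its median (0.0746). Cd8a, a coreceptor chain that CD4 single-positive cells switch off, was 7.27, 7.08 and 5.22 in M2 and 9.28, 10.22 and 9.38 in Tak1-deficient cells, where it lay above the wild-type SM&M1 mean of 7.79 and below the PostDP mean of 12.74. The log2 difference was -3.10 ± 0.43, so M2 was lower 8.60-fold (limma adjusted p = 0.000467), and without M2 replicate 3 the difference was -2.45. Averaged over its probe sets, Cd8a differed by -2.235. B2m, which encodes the light chain of MHC class I, was 14.33, 14.53 and 14.85 in M2 and 14.05, 14.06 and 13.88 in Tak1-deficient cells. Every M2 array was the higher, and the difference of 0.57 ± 0.18 had a limma adjusted p of 0.0513 with all arrays, 0.0452 without Tak1-deficient replicate 2 and 0.0459 without M2 replicate 1.

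Of 11871 genes tested, 1723 (14.5%) differed between M2 and Tak1-deficient SM&M1 cells at a limma adjusted p under 0.05, with 744 (6.27%) higher in M2 and 979 (8.25%) lower. Among them, 802 differed at least 2-fold. Without Tak1-deficient replicate 2 there were 2320 calls (19.5%), 932 (7.85%) higher and 1388 (11.7%) lower. Both fits called 1454 genes (12.2%) in the same direction, 634 (5.34%) higher and 820 (6.91%) lower in M2, and none in opposite directions. The 15-array fit borrows its estimate of the spread from all 5 groups, which were not equally variable. The median standard deviation over tested genes was 0.441 in the Tak1-deficient group and 0.116 there without replicate 2. It was 0.177 in M2, 0.193 in SM&M1, 0.168 in PostDP and 0.231 in PreDP. Standard errors and adjusted p from all 15 arrays may therefore understate the error on the Tak1-deficient side. A fit of M2 and the Tak1-deficient group only made 302 calls (2.54%), 184 (1.55%) higher in M2 and 118 (0.994%) lower, and 300 of them were among the 1723. Once replicate 2 was left out, it made 1888 (15.9%), 855 (7.2%) higher and 1033 (8.7%) lower. Without M2 replicate 2 the 15-array design gave 944 calls, and without M2 replicate 3 it gave 989. The M2 and Tak1-deficient arrays did not overlap for 3707 genes (31.2%), of which 1641 (13.8%) were higher in M2 and 2066 (17.4%) lower. The median difference over all tested genes was -0.07, and centring each array on its median moved it to 0.03. With centred arrays 3.64% of all tested genes were higher and 3.45% lower. Leaving out 1 M2 array gave 3.7% to 4.41% higher and 4.25% to 5.69% lower. Without Tak1-deficient replicate 1 the shares were 6.44% and 7.34%, and without replicate 3 they were 7.39% and 9.91%. The list counts below stand beside these shares.

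Pdlim4, whose protein binds actin-associated structures through PDZ and LIM domains, had the largest difference higher in M2. It was 10.38, 10.61 and 10.82 in M2 and 5.04, 5.40 and 5.101 in Tak1-deficient cells, higher by 5.42 ± 0.50, or 42.9-fold (limma adjusted p = 1.56e-05). All 3 Tak1-deficient arrays lay close together, between the means of PostDP (4.79) and PreDP (6.00) cells. S1pr1, the sphingosine-1-phosphate receptor needed for thymic exit, was 11.49, 12.27 and 11.49 in M2 and 7.97, 5.71 and 7.69 in Tak1-deficient cells. No array overlapped, replicate 2 was the lowest, and the difference was 4.63 ± 0.47, or 24.7-fold (limma adjusted p = 3.46e-05), and 3.92 without replicate 2. Rflnb, which encodes a filamin-binding protein, was 11.12, 11.34 and 11.18 against 6.91, 5.88 and 7.12, higher by 4.58 ± 0.38 (limma adjusted p = 7.35e-06), and by 3.305 when its probe sets were averaged. Dapl1 was 9.95, 10.47 and 10.49 against 6.03, 6.32 and 5.49, higher by 4.36 ± 0.29 (limma adjusted p = 1.94e-06). In both genes the highest Tak1-deficient array lay several log2 units below the lowest M2 array. Calhm6, a member of the calcium homeostasis modulator family, was 9.63, 9.83 and 9.88 against 5.67, 4.69 and 6.20, higher by 4.26 ± 0.61. Sidt1, a membrane protein related to nematode RNA transporters, was 9.29, 9.61 and 9.72 against 4.87, 6.43 and 4.86, higher by 4.15 ± 0.49. Both were called by limma, with adjusted p of 0.000601 for Calhm6 and 0.000133 for Sidt1. When its probe sets were averaged, Sidt1 differed by 2.60.

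**Figure D1:**
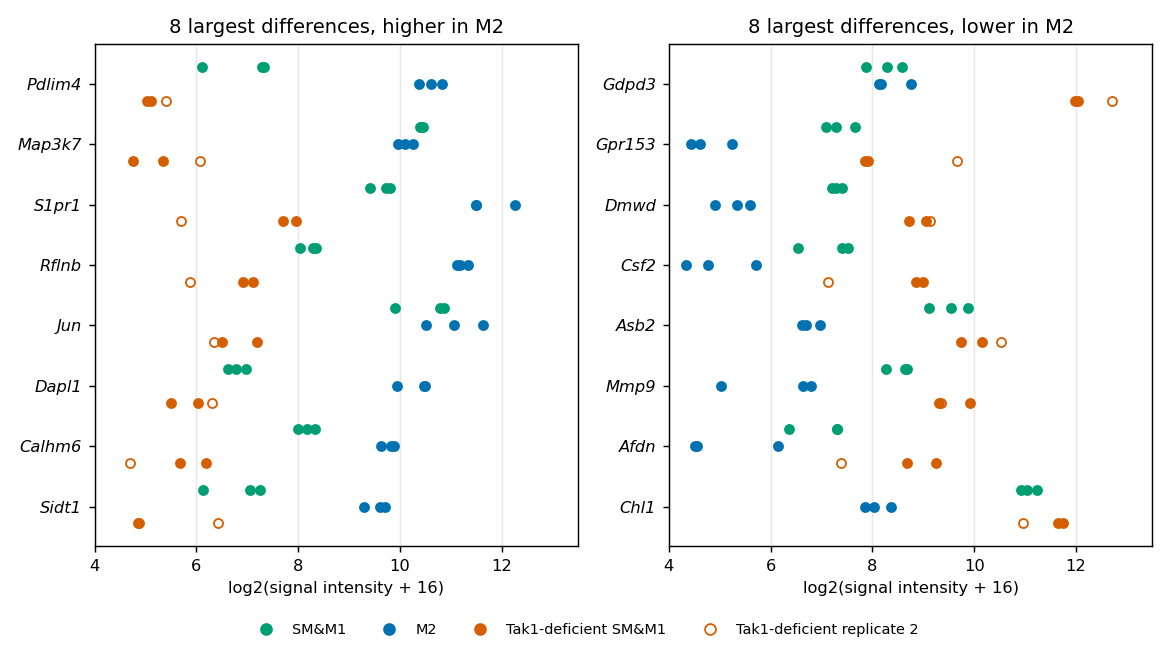
Levels of the 8 genes with the largest differences higher in M2 (left) and lower in M2 (right), as log2(signal intensity + 16) on the horizontal axis, with 1 point per array for wild-type SM&M1 (green), M2 (blue) and Tak1-deficient SM&M1 (orange, replicate 2 open). Blue and orange points do not overlap for any of these genes, which the choice of genes required, and the green points of Gdpd3 lie with M2 at a mean of 8.24 while those of Chl1, at a mean of 11.06, lie with the Tak1-deficient cells.

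Jun, the AP-1 subunit that the JNK branch acts on, was among these largest differences. It was 11.06, 11.63 and 10.51 in M2 and 6.50, 6.34 and 7.18 in Tak1-deficient cells, higher in M2 by 4.40 ± 0.79, or 21.1-fold (limma adjusted p = 0.00253). Averaged over its probe sets, Jun was higher by 3.175. The Tak1-deficient arrays also lay below the means of every other group, which were 9.41 in PreDP, 9.35 in PostDP and 10.51 in SM&M1. Jun varied widely within the double-positive groups and fell with replicate number in both. It was 10.93, 9.07 and 8.23 in PreDP and 11.44, 8.50 and 8.105 in PostDP arrays. Jun and Fos are also in the list of genes induced by tissue dissociation and stress, whose mean level over 19 measured genes was 10.63 to 10.87 in M2 and 9.79 to 10.04 in Tak1-deficient arrays. These ranges did not overlap, and the part of sample handling in the Jun difference was not tested. Of 17 tested genes of that list, 5 were higher in M2 (Jun, Fos, Hspa1a, Hspa1b and Btg2) and none lower, beside 6.27% and 8.25% of all tested genes. Without Tak1-deficient replicate 2 there were 6 higher and 1 lower, beside 7.85% and 11.7%. Hspa1b, an inducible HSP70 chaperone, was 9.90, 10.44 and 12.20 in M2 and 8.12, 6.03 and 8.66 in Tak1-deficient cells, higher by 3.24 ± 0.71 (limma adjusted p = 0.00888), by 2.46 without Tak1-deficient replicate 2 and by 2.57 without M2 replicate 3. Among other members, Dusp1 differed by 0.04, Zfp36 by 0.29 and Hspa8 by 0.02, and none of these passed. Junb, another AP-1 gene, differed by 0.33 and did not pass with all arrays, but without Tak1-deficient replicate 2 it was higher by 1.34 (limma adjusted p = 0.0172).

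The largest differences lower in M2 included a gene whose high level was seen in Tak1-deficient cells and in no other group. Gdpd3, which encodes a glycerophosphodiester phosphodiesterase family enzyme, was 8.13, 8.17 and 8.75 in M2 and 12.04, 12.71 and 11.98 in Tak1-deficient cells. The log2 difference was -3.89 ± 0.27, so M2 was lower 14.8-fold (limma adjusted p = 2.09e-06). Its mean was 7.87 in PreDP, 7.49 in PostDP and 8.24 in wild-type SM&M1 cells, beside an M2 mean of 8.35. Csf2, which encodes the cytokine GM-CSF, was 4.76, 4.33 and 5.71 in M2 and 8.98, 7.13 and 8.86 in Tak1-deficient cells, a difference of -3.39 ± 0.46 (limma adjusted p = 0.000394), or -3.99 without Tak1-deficient replicate 2. Mmp9, a secreted gelatinase, was 6.79, 5.02 and 6.63 against 9.91, 9.34 and 9.32, a difference of -3.38 ± 0.43 (limma adjusted p = 0.000233). For both, the 3 Tak1-deficient arrays stood above every M2 array and above the PreDP and PostDP means, which lay between 4.34 and 6.55. The wild-type SM&M1 means were nearer, at 7.15 for Csf2, above Tak1-deficient replicate 2, and 8.52 for Mmp9. Chl1, a cell adhesion molecule of the L1 family, was 8.36, 7.86 and 8.03 against 11.74, 10.95 and 11.64. Its Tak1-deficient level lay at the PostDP and wild-type SM&M1 means of 10.94 and 11.06, and the difference was -3.36 ± 0.22 (limma adjusted p = 1.71e-06). When its probe sets were averaged, Chl1 differed by -1.55. The remaining 4 were Gpr153, an orphan receptor (-3.71 ± 0.41, or -3.12 without Tak1-deficient replicate 2), Dmwd (-3.68 ± 0.21, or -2.03 when its probe sets were averaged), Asb2, a substrate adaptor of a ubiquitin ligase (-3.38 ± 0.26), and Afdn, an adherens junction scaffold (-3.37 ± 0.52), with limma adjusted p between 6.11e-07 and 0.000893.

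Of 21 tested genes of late maturation and thymic exit, 12 were higher in M2 and none lower, where 6.27% and 8.25% of all tested genes were, and their median difference was 1.46, beside -0.07 over all tested genes. Leaving out any 1 of the 6 arrays left 11 to 13 higher, and 1 was lower without Tak1-deficient replicate 3. Apart from S1pr1 and Dapl1, Slfn1, a Schlafen-family gene, was 12.12, 12.50 and 12.75 in M2 and 9.20, 7.27 and 8.75 in Tak1-deficient cells, higher by 4.05 ± 0.54 (limma adjusted p = 0.000356), and by 1.90 when its probe sets were averaged. Ms4a4c, a four-span membrane protein, was 11.10, 11.03 and 11.24 against 7.76, 7.34 and 7.73, higher by 3.51 ± 0.23 (limma adjusted p = 1.71e-06). Neither gene overlapped between the groups. Klf2, the transcription factor that drives S1pr1 in T cells, and Foxo1, which acts upstream of Klf2, were singled out from the list after their values were seen. Klf2 was 12.28, 12.37 and 12.29 in M2 and 10.11, 9.74 and 9.60 in Tak1-deficient cells, higher by 2.50 ± 0.20 (limma adjusted p = 5.25e-06). Foxo1 was 12.28, 12.61 and 12.67 against 11.05, 11.51 and 10.63, higher by 1.46 ± 0.25 (limma adjusted p = 0.00178). The members that did not pass included Ccr7, the chemokine receptor for medullary entry, at a difference of 0.49 (limma adjusted p = 0.252), and Il7r, the survival cytokine receptor, at -0.36 (limma adjusted p = 0.398).

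Genes of the double-positive and semi-mature stages ran the other way. Of 27 tested, 10 were lower in M2 and none higher with all arrays, beside 8.25% and 6.27% of all tested genes, with a median difference of -1.13. Without Tak1-deficient replicate 2, 14 were lower and 1 higher. Cd24a, the heat-stable antigen lost on maturation, was 11.26, 8.62 and 8.24 in M2 and 12.63, 12.23 and 13.14 in Tak1-deficient cells. M2 replicate 1 was the highest of its group and still below every Tak1-deficient array, and the difference was -3.29 ± 0.56 (limma adjusted p = 0.00178), or -4.23 without that array. Averaged over its probe sets, Cd24a differed by -2.52 (limma adjusted p = 0.0264). Ccr9, the receptor for the thymic chemokine CCL25, was 12.33, 11 and 11.26 against 13.96, 14.87 and 13.87, a difference of -2.71 ± 0.35 (limma adjusted p = 0.000250). Its Tak1-deficient level was near the PostDP mean of 14.37. Tox2, an HMG-box factor, was 9.07, 7.83 and 8.09 against 10.57, 10.25 and 10.55, a difference of -2.13 ± 0.28 (limma adjusted p = 0.000309), and -1.48 when its probe sets were averaged. The recombination genes Rag1 and Rag2 differed by -1.41 and -1.36 and did not pass.

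**Figure D2:**
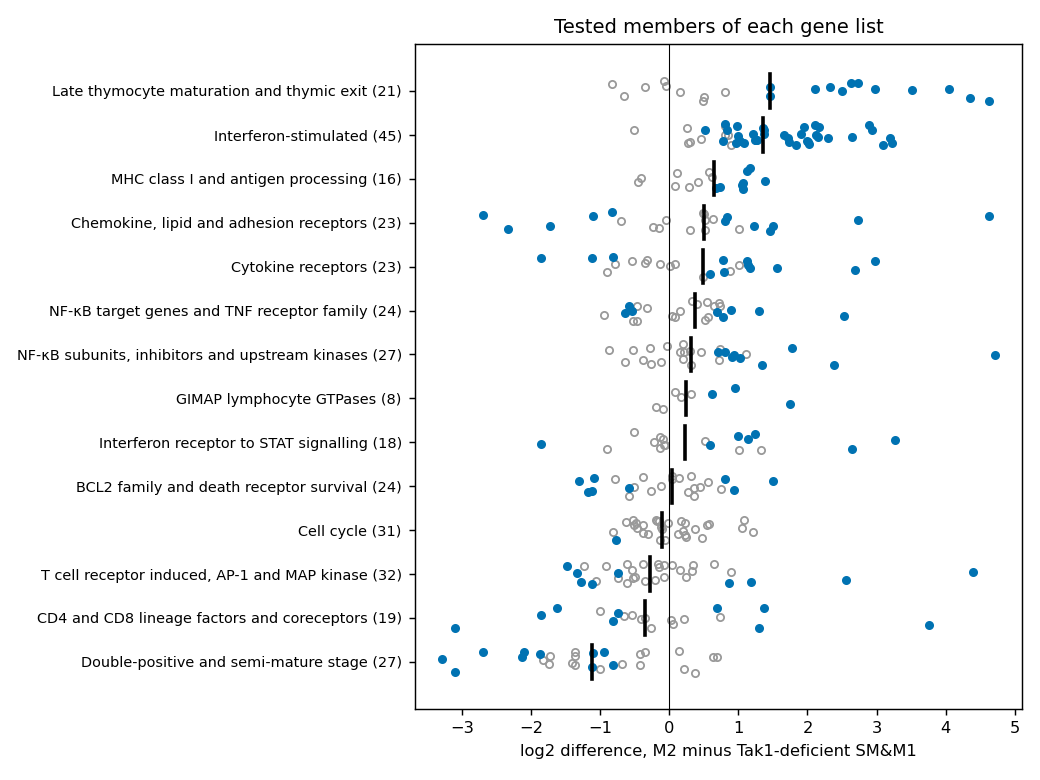
Difference between M2 and Tak1-deficient SM&M1 cells (log2, M2 minus Tak1-deficient, horizontal axis) for each tested member of the 14 gene lists, with the number of tested members in parentheses. Filled blue points passed at an adjusted p under 0.05, open grey points did not, and black bars are list medians, which run from 1.46 for late maturation and thymic exit to -1.13 for the double-positive and semi-mature stages.

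In the NF-κB pathway, 9 of 27 tested subunits, inhibitors and upstream kinases were higher in M2 and none lower, beside 6.27% and 8.25% of all tested genes. Their median difference was 0.32, and Map3k7 itself was 1 of the 9. The count higher was 4 without M2 replicate 2 and 4 with each array centred on its median, and without Tak1-deficient replicate 2 it was 10 higher and 2 lower. The inhibitors came first. Bcl3, an atypical IκB protein that binds p50 and p52, was 10.28, 10.37 and 10.26 in M2 and 8.24, 8.30 and 7.21 in Tak1-deficient cells, without overlap. It was higher by 2.39 ± 0.26, or 5.22-fold (limma adjusted p = 7.24e-05), and its mean was 4.38 in PreDP, 6.12 in PostDP and 9.65 in wild-type SM&M1 cells. Nfkbia, which encodes IκBα and is itself an NF-κB target, was 13.78, 14.12 and 14.16 against 13.01, 10.69 and 13.03. The Tak1-deficient arrays were the lower, but replicate 2 lay more than 2 log2 units below its mates. The difference was 1.78 ± 0.45 with all arrays (limma adjusted p = 0.0196) and 1.003 without replicate 2 (0.000780), and it did not pass without M2 replicate 2 (0.0683) or M2 replicate 3 (0.0674), nor with centred arrays (0.0603). Traf1, an adaptor of TNF receptors, was 9.46, 9.83 and 9.97 against 8.17, 8.70 and 8.35, higher by 1.34 ± 0.21 (limma adjusted p = 0.00100). Of the subunits, Rel (-0.12) and Rela (-0.04) did not pass with or without Tak1-deficient replicate 2. Relb (0.72) and Nfkb2 (-0.53) did not pass with all arrays, and without that array both were higher in M2, by 1.03 and 0.61, with limma adjusted p of 0.0139 and 0.0413.

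Among NF-κB target genes and TNF-family receptors, 5 of 24 tested were higher in M2 and 3 lower, beside 6.27% and 8.25% of all tested genes. Their median difference was 0.36. This list depended most on the outlying array: without Tak1-deficient replicate 2, 12 were higher and 2 lower. Without M2 replicate 3, 3 were higher, and without M2 replicate 1 or 2 none was lower. With centred arrays, 3 were higher and none lower. Tnfrsf25, the death receptor DR3, was 9.65, 10.03 and 9.97 in M2 and 7.51, 7.16 and 7.41 in Tak1-deficient cells, higher by 2.52 ± 0.28 (limma adjusted p = 7.22e-05). Ltb, which encodes lymphotoxin β, was 13.69, 13.92 and 14.08 against 12.70, 12.56 and 12.51, higher by 1.30 ± 0.19 (limma adjusted p = 0.000553). Neither overlapped, and replicate 2 lay with its mates in both. Tnfrsf1b, the TNF receptor TNFR2, was higher by 0.78 ± 0.13 (limma adjusted p = 0.00180), and by 0.24 when its probe sets were averaged, which did not pass. Sod2, the mitochondrial superoxide dismutase, was higher by 0.89 (limma adjusted p = 0.0164) but did not pass without M2 replicate 1 (0.0622) or 3 (0.0540), nor with centred arrays (0.0843) or when its probe sets were averaged (a difference of 0.34). Cd27, a costimulatory receptor, was lower in M2, at -0.64, and at -0.40 without Tak1-deficient replicate 2. It did not pass without M2 replicate 1 (0.0995), 2 (0.0859) or 3 (0.0711), nor with centred arrays (0.132). Bcl2l1, which encodes BCL-XL, was lower by 0.59 on the log2 scale and did not pass without M2 replicate 1 (0.0908), M2 replicate 2 (0.0870) or Tak1-deficient replicate 1 (0.0543), nor with centred arrays (0.239) or when its probe sets were averaged (a difference of -0.13).

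Of 32 tested genes downstream of the T cell receptor and the MAP kinases, 4 were higher in M2 and 5 lower, where 6.27% and 8.25% of all tested genes were, with a median difference of -0.28. Without Tak1-deficient replicate 2 the counts were 6 and 8, and without Tak1-deficient replicate 3 they were 4 and 9. Without M2 replicate 1, 2 were higher and 3 lower, without M2 replicate 2 they were 2 and 4, and without M2 replicate 3 they were 4 and 3. Among the AP-1 genes, Jun, Fos and Jund were higher in M2. Fosl2 (-0.92, or -0.31 without Tak1-deficient replicate 2) and Fosb (0.16) did not pass, and Batf (0.90) passed only without Tak1-deficient replicate 2, where it was higher by 1.36. Fos was 12.72, 12.95 and 11.53 in M2 and 10.33, 9.09 and 10.11 in Tak1-deficient cells, higher by 2.56 ± 0.63 (limma adjusted p = 0.0161), but did not pass without M2 replicate 1 (0.0555) or 2 (0.0719). Jund was 13.19, 12.90 and 13.15 against 11.98, 11.67 and 12.06, higher by 1.18 ± 0.18 (limma adjusted p = 0.00100), and by 0.22 when its probe sets were averaged, which did not pass. The kinase genes Mapk8 (-0.07), Mapk9 (0.24) and Mapk14 (-0.08), which encode JNK1, JNK2 and p38α, did not pass.

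The 5 members lower in M2 were Nr4a1, Nr4a2, Nab2, Dusp6 and Dusp10. Nr4a1, the orphan receptor NUR77, was 11.67, 11.63 and 11.35 in M2 and 12.80, 13.06 and 12.81 in Tak1-deficient cells, a difference of -1.34 ± 0.16 (limma adjusted p = 0.000134). Its Tak1-deficient level was close to the wild-type SM&M1 mean of 12.70. Dusp6, a phosphatase of the kinase ERK, was 10.76, 10.88 and 10.01 against 12.36, 11.35 and 12.39, a difference of -1.48 ± 0.29 (limma adjusted p = 0.00490). Nab2, a corepressor of EGR factors, was 10.50, 10.76 and 10.67 against 11.43, 12.10 and 11.79, a difference of -1.13 ± 0.20 (limma adjusted p = 0.00231). None of the 3 genes overlapped between the groups. Nr4a2 was lower by 1.28 on the log2 scale (limma adjusted p = 0.0427), and the difference was -0.66 without Tak1-deficient replicate 2, whose level was 10.07 against 8.38 and 8.06 in its mates. It did not pass without M2 replicate 1 (0.0663), 2 (0.109) or 3 (0.137), nor when its probe sets were averaged (-0.69). The phosphatase Dusp2 was higher in M2 by 0.86 (limma adjusted p = 0.0274) and did not pass without M2 replicate 1 (0.111), M2 replicate 2 (0.0930) or Tak1-deficient replicate 1 (0.0529). Cd5, a surface gauge of receptor signal (-0.53), and the orphan receptor Nr4a3 (-0.54) did not pass. The early response factors Egr1 (-0.38) and Egr2 (-1.06) did not pass with all arrays, and without Tak1-deficient replicate 2 they were lower in M2, at -0.55 and -1.66, with limma adjusted p of 0.0268 and 0.00277.

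**Figure D3:**
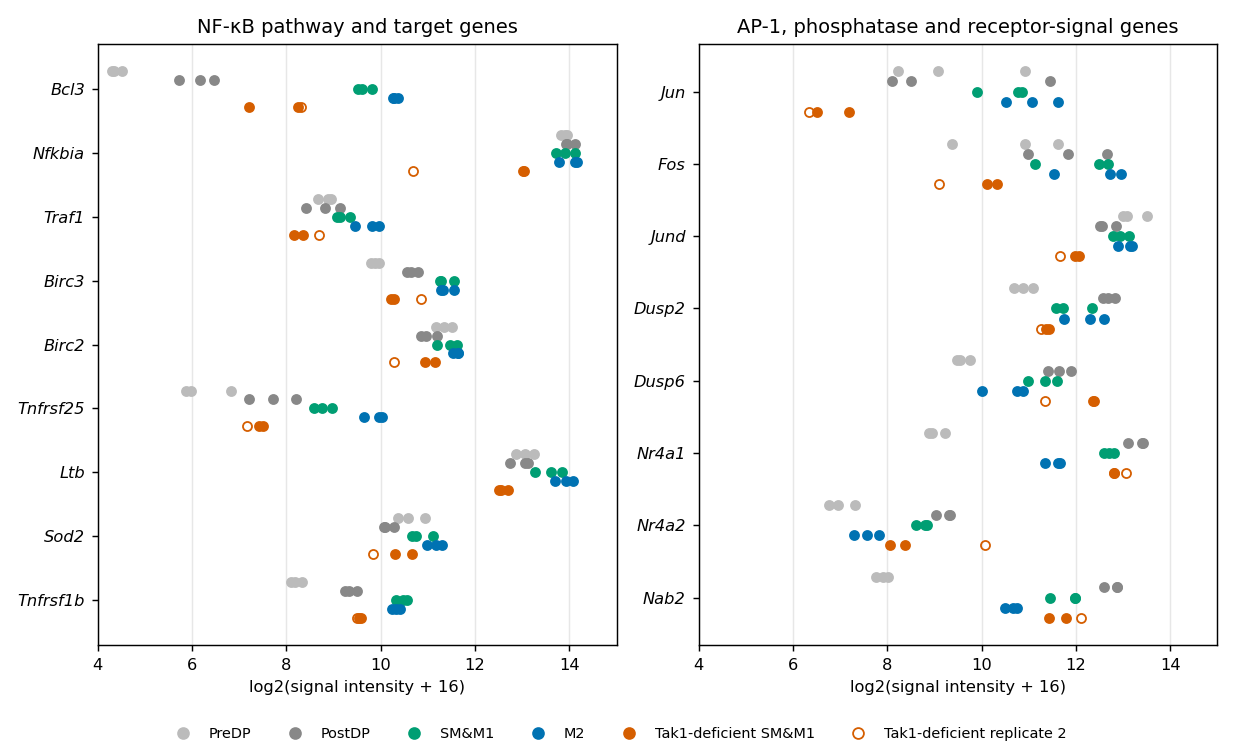
Levels of NF-κB pathway and target genes (left) and of AP-1, phosphatase and receptor-signal genes (right) as log2(signal intensity + 16) on the horizontal axis, with 1 point per array in all 5 groups and Tak1-deficient replicate 2 drawn open. Bcl3 climbs from a mean of 4.38 in PreDP to 10.30 in M2 with the Tak1-deficient arrays between 7.21 and 8.30, and the open point of Nfkbia at 10.69 lies far below its mates.

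Interferon-stimulated genes formed the group with the highest share of calls. Of 45 tested, 36 were higher in M2 and none lower, where 6.27% of all tested genes were higher, with a median difference of 1.36. The groups did not overlap for 39 of the 45 in that direction, beside 13.8% of all tested genes. Without Tak1-deficient replicate 2, 40 were higher, and leaving out any other array left 28 to 34. In the fit of the M2 and Tak1-deficient arrays only, 18 were higher, beside 1.55% of all tested genes. With each array centred on its median 30 were, beside 3.64%. Ifit1, an effector that binds foreign RNA, was 11.98, 12.18 and 12.40 in M2 and 9.38, 9.16 and 9.22 in Tak1-deficient cells, higher by 2.94 ± 0.34, or 7.66-fold (limma adjusted p = 0.000120). Ifit3 was 11.21, 11.36 and 11.49 against 8.25, 8.70 and 7.84, higher by 3.09 ± 0.27, or 8.53-fold (limma adjusted p = 1.08e-05). Oasl2, of the oligoadenylate synthetase family, was 10.42, 10.55 and 10.92 against 6.29, 7.91 and 8.10, higher by 3.20 ± 0.42 (limma adjusted p = 0.000299). The M2 arrays spanned at most 0.5 log2 units in each of these genes, and no Tak1-deficient array reached them. Xaf1 was higher by 3.23 ± 0.37 with its brightest probe set (limma adjusted p = 0.000104), but by 0.37 when its probe sets were averaged, which did not pass. The wild-type SM&M1 means were 11.58 for Ifit1, 9.81 for Ifit3 and 10.21 for Oasl2, between the M2 and Tak1-deficient means in each case.

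Upstream of these genes, 6 of 18 tested genes from the interferon receptors to the STAT factors were higher in M2 and 1 lower. The shares over all tested genes were 6.27% and 8.25%, and the list median was 0.22. Socs3, a feedback inhibitor of JAK signalling, was 10.87, 11.26 and 12.01 in M2 and 7.01, 9.43 and 7.92 in Tak1-deficient cells, higher by 3.26 ± 0.50 (limma adjusted p = 0.000893), or by 3.92 without Tak1-deficient replicate 2. Usp18, which removes ISG15 from proteins, was 11.46, 11.67 and 11.47 against 9.24, 8.48 and 8.95, higher by 2.64 ± 0.37 (limma adjusted p = 0.000540). Neither overlapped. Irf2, a factor that binds the same sites as IRF1, was higher by 1.13 ± 0.15 (limma adjusted p = 0.000300). Irf7, the factor that amplifies interferon responses, was 11.38, 11.56 and 11.77 against 10.07, 11.34 and 9.57, and replicate 2 lay near the M2 arrays. Its difference was 1.24 (limma adjusted p = 0.0361) and 1.75 without that array (0.000577). It did not pass without any 1 of the other arrays, at 0.0637, 0.0959 and 0.115 without M2 replicates 1, 2 and 3 and 0.0879 and 0.0949 without Tak1-deficient replicates 1 and 3. Socs1, the feedback inhibitor that also restrains cytokine signals in thymocytes, was the member lower in M2. It was 8.24, 8.65 and 7.56 against 9.80, 10.53 and 9.69, a difference of -1.85 ± 0.36 (limma adjusted p = 0.00428). The receptor chains Ifnar1 (-0.14), Ifnar2 (1.001) and Ifngr2 (-0.90) did not pass, and without Tak1-deficient replicate 2 Ifnar2 differed by 0.45 and Ifngr2 by 0.03. Ifngr1 was higher by 0.58 (limma adjusted p = 0.0392) but did not pass without that array (0.42, limma adjusted p = 0.0655) or with centred arrays (0.159).

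Promoters of these genes were read from RefSeq (GRCm38.p6), as windows from 250 bases before to 50 after each transcription start. The core of the interferon-stimulated response element, the letters GAAA, any 2 bases and GAAA again, was searched on both strands; matches may overlap other motifs, and a match is a description of the letters only. They stood in 3.44% of all 32851 windows, and 3.99% of all 27025 genes with a window held them in at least 1. Of the 9651 tested genes with a window, 3.77% did. Of the genes that passed with and without Tak1-deficient replicate 2, 9.88% of 516 higher in M2 held them, and 3.28% of 671 lower in M2. Of the interferon-stimulated genes higher in both fits, 25 of 34 had a window and 12 of those (48%) held the letters. None of the 7 NF-κB pathway genes or the 11 maturation genes that were higher and had a window held them. Stretches of 50 bases before the start are shown for 3 genes higher in M2 and for Socs1, which holds the letters but was lower in M2, because they carry this motif. They are given 5′ to 3′ on the gene's strand. Capitals mark every match in the stretch, and a match that begins TTTC is the same motif on the other strand.
Ifit1, chr19:34640784-34640833, plus strand: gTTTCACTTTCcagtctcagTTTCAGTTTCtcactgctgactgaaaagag
Ifit3, chr19:34583387-34583436, plus strand: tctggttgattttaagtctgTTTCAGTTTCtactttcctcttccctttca
Calhm6, chr10:34128007-34128056, minus strand: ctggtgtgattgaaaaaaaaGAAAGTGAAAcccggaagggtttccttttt
Socs1, chr16:10785584-10785633, minus strand: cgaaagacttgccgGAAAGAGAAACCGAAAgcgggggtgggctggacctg
The Ifit1 stretch held 2 matches, whose first bases lay 104 and 85 bases before the start, and the Socs1 stretch held 2 that overlap, at 83 and 77. The match lay 122 bases before the start in Ifit3 and 64 in Calhm6. Calhm6 was among the 8 largest differences and was not a member of the interferon list. The looser κB core, the letters GGG, any 5 bases and CC, was common in every set of genes. Its letters stood in 71% of tested genes with a window, 73.6% of those higher and 75.4% of those lower in M2. Among genes higher in both fits, 4 of the 7 NF-κB pathway genes (57.1%) held them. The shares were 80% for the interferon-stimulated and 81.8% for the maturation genes. The Bcl3 promoter, shown as the NF-κB pathway gene with the largest difference after Map3k7, held 2 overlapping matches, 1 on the gene's strand from 46 bases before the start and 1 on the other strand, as the reverse complement, from 45.
Bcl3, chr7:19822771-19822820, minus strand: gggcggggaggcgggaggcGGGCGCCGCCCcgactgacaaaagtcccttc

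The MHC class I and antigen processing genes were higher in M2 for 8 of 16 tested and lower for none, with a median of 0.65. Of all tested genes, 6.27% were higher and 8.25% lower. Psmb9, an immunoproteasome subunit, was 12.58, 12.74 and 12.86 in M2 and 11.46, 11.35 and 11.22 in Tak1-deficient cells, higher by 1.38 ± 0.27 (limma adjusted p = 0.00464). Tap1, of the peptide transporter, was 11.94, 12.08 and 12.08 against 11.20, 10.63 and 10.90, higher by 1.12 ± 0.17 (limma adjusted p = 0.000925). Replicate 2 stayed with its mates in these genes, and no array overlapped. Psmb10, another such subunit, was higher by 1.17 ± 0.17, and Psme1, of the proteasome activator, by 1.07 ± 0.17, with limma adjusted p of 0.000644 and 0.00100. The classical heavy chain gene H2-D1 was higher by 1.05, while Tap2 (-0.41) did not pass. H2-K1, the other classical heavy chain gene, differed by 0.42 and did not pass with all arrays, but without Tak1-deficient replicate 2 it was higher by 0.91 (limma adjusted p = 0.00529).

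Cytokine receptor genes were mixed, with 9 of 23 tested higher in M2 and 3 lower, beside 6.27% and 8.25% of all tested genes, and a median of 0.48. Il6ra, the IL-6 receptor, was 12.21, 12.31 and 12.20 in M2 and 8.97, 9.82 and 9.01 in Tak1-deficient cells, higher by 2.97 ± 0.44 (limma adjusted p = 0.000682), and by 1.53 when its probe sets were averaged. Il18r1, the IL-18 receptor chain, was 9.67, 9.26 and 9.28 against 6.40, 5.83 and 7.90, higher by 2.69 ± 0.44 (limma adjusted p = 0.00140), or by 3.29 without Tak1-deficient replicate 3. Neither overlapped. Tgfbr2, a TGF-β receptor, was higher by 1.55 ± 0.31, or by 1.06 without Tak1-deficient replicate 2 and 1.02 when its probe sets were averaged, and passed in each. Il2rb, the shared chain of the IL-2 and IL-15 receptors, was higher by 1.17 ± 0.21 (limma adjusted p = 0.00272), by 0.57 when its probe sets were averaged, which did not pass, and by -0.02 at pseudocount 1, which selects another probe set for the gene. On the lower side, Il12rb1, of the IL-12 receptor, was 5.52, 6.07 and 7.35 against 8.15, 8.29 and 8.10, a difference of -1.86 ± 0.34 (limma adjusted p = 0.00265). Tnfrsf1a, the TNF receptor TNFR1, was 10.05, 10.35 and 10.23 against 11.04, 11.70 and 11.24, a difference of -1.12 ± 0.19 (limma adjusted p = 0.00185). Both were lower in every M2 array. Il10ra was lower by 0.82 on the log2 scale (limma adjusted p = 0.0143) and did not pass without M2 replicate 3 (0.0584) or with centred arrays (0.219).

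Of 24 tested genes of the BCL2 family and death receptor pathways, 3 were higher in M2 and 5 lower, beside 6.27% and 8.25% of all tested genes. Their median was 0.04, and 3 were lower with centred arrays, beside 3.45% of all tested genes. No gene of this list was called in the fit of the M2 and Tak1-deficient arrays only. Pim1, a kinase that promotes survival, was higher by 1.497 ± 0.29, and Birc3, which encodes the inhibitor of apoptosis cIAP2, by 0.94 ± 0.18, with limma adjusted p of 0.00419 and 0.00358. Birc3 was higher by 0.82 when its probe sets were averaged and did not pass. Birc2, which encodes cIAP1, was higher by 0.80 (limma adjusted p = 0.0219) and did not pass without M2 replicate 1 (0.0655), 2 (0.0738) or 3 (0.0553), nor with centred arrays (0.122). The 5 members lower in M2 were Bcl2l11, Bmf, Ripk3 and Tnfrsf1a, which promote cell death, and Bcl2l1, which opposes it and whose call ended in 3 of the leave-outs. Bcl2l11, which encodes BIM, was 10.72, 10.49 and 10.71 in M2 and 12.16, 11.37 and 11.90 in Tak1-deficient cells, a difference of -1.17 ± 0.22 (limma adjusted p = 0.00305), which did not pass with centred arrays (0.0566). Bmf, another BH3-only gene, was 8.13, 7.60 and 7.95 against 8.87, 9.43 and 9.31, a difference of -1.31 ± 0.24 (limma adjusted p = 0.00287), and -0.46 when its probe sets were averaged, which did not pass. Ripk3, the kinase of necroptosis, was 9.58, 9.41 and 9.55 against 10.28, 11.29 and 10.27, a difference of -1.10 ± 0.23 (limma adjusted p = 0.00745). No array of the 3 genes overlapped between the groups. Bcl2 itself differed by -0.27 and Cflar by 0.04, and neither passed.

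Of 23 tested chemokine, lipid and adhesion receptor genes, 7 were higher in M2 and 5 lower, beside 6.27% and 8.25% of all tested genes. Their median was 0.51. S1pr4, a second sphingosine-1-phosphate receptor, was 12.16, 12.21 and 12.15 in M2 and 9.55, 9.17 and 9.59 in Tak1-deficient cells, higher by 2.73 ± 0.15 (limma adjusted p = 6.11e-07). Itga6 and Itgb7, both integrin chains, were higher by 1.497 ± 0.31 and 1.45 ± 0.30, with limma adjusted p of 0.00674 and 0.00677. Plxnd1, a semaphorin receptor that guides thymocytes to the medulla, was 8.60, 8.31 and 7.87 against 10.75, 10.82 and 10.24, a difference of -2.34 ± 0.20 (limma adjusted p = 1.04e-05). Its mean was 12.31 in PreDP, 10.75 in PostDP and 9.85 in wild-type SM&M1 cells, and the Tak1-deficient arrays lay at the PostDP level. Itgb1, the integrin β1 chain, and Ccr4, a chemokine receptor of the medulla, were lower by 1.73 and 1.10 on the log2 scale, with limma adjusted p of 0.000793 and 0.00683. Of 19 lineage factors and coreceptors, 4 were higher and 5 lower, beside the same 6.27% and 8.25% of all tested genes. Only 2 were higher without M2 replicate 2 or without M2 replicate 3. With centred arrays, 2 were higher and 3 lower. St8sia6, a sialyltransferase, was 11.63, 11.84 and 11.95 against 8.16, 8.06 and 7.93, higher by 3.76 ± 0.20, or 13.6-fold (limma adjusted p = 6.11e-07). It had 1 of the smallest adjusted p of the comparison, and all 3 Tak1-deficient arrays lay within 0.3 log2 units. Gata3, a factor needed for CD4 lineage choice, was 10.92, 10.79 and 10.53 against 12.03, 12.97 and 12.13, a difference of -1.63 ± 0.21 (limma adjusted p = 0.000270). Cd8b1, the other CD8 chain, was lower by 0.81 (limma adjusted p = 0.00867) but did not pass with centred arrays (0.123), and Eomes, a T-box factor, was higher by 1.30 ± 0.29 (limma adjusted p = 0.00946).

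Of the 8 tested GIMAP genes, GTPases of lymphocyte survival, 3 were higher in M2 and none lower, beside 6.27% and 8.25% of all tested genes. Without M2 replicate 3, 1 was higher. Gimap3 was higher by 1.74 ± 0.27 (limma adjusted p = 0.000925). Gimap7 was higher by 0.94 (limma adjusted p = 0.0122), and did not pass without M2 replicate 3 (0.0540) or when its probe sets were averaged (0.61). Of 31 tested cell cycle genes, 1 was lower in M2 and none higher, beside 8.25% and 6.27% of all tested genes. Their median was -0.11, and without Tak1-deficient replicate 2 there were 2 lower. None was lower without M2 replicate 2 or 3, or with centred arrays. The member called was Mcm2, of the replicative helicase, at -0.77 (limma adjusted p = 0.0167). It did not pass without M2 replicate 2 (0.0857) or 3 (0.0639), with centred arrays (0.149), or when its probe sets were averaged (a difference of -0.52). Mki67 differed by -0.01 and Top2a by 0.22.

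Markers of other cells were examined across the same arrays. The T cell identity list had a mean level of 12.91 to 13.13 in M2 and 12.93 to 13.83 in Tak1-deficient arrays, and all 10 of its measured genes were above the array median in every one. Cd28, the costimulatory receptor, was the member lower in M2, at 12.37, 12.58 and 12.43 against 13.72, 14.09 and 13.57, a difference of -1.33 ± 0.19 (limma adjusted p = 0.000609). Macrophage, neutrophil, B cell, dendritic cell and thymic epithelial genes gave no call among 6, 6, 6, 5 and 5 tested members, and no erythroid gene passed the filter on low values. Levels of neutrophil genes varied within the groups: their mean over 8 measured genes was 8.43, 6.18 and 5.87 in M2 and 6.12, 8.29 and 8.45 in Tak1-deficient arrays. S100a9, a neutrophil alarmin, was 9.97, 6.41 and 4.74 in M2 and 6.19, 10.72 and 10.62 in Tak1-deficient cells, and the macrophage lysozyme gene Lyz2 was 9.53, 7.38 and 7.13 against 7.40, 9.85 and 9.79. Both groups thus held arrays with high and low levels, and the groups overlapped. The mean over 13 macrophage genes was 6.11 to 6.96 in M2 and 6.22 to 7.90 in Tak1-deficient arrays, with Mertk, C1qa, C1qb, C1qc, Cd14, Vsig4 and Marco below the filter. Since the arrays measure sorted populations in bulk, fewer cells of a type and less RNA per cell cannot be told apart. The part of these cells in the differences above was not tested. The B cell factor Pax5 (-0.94), the dendritic factor Zbtb46 (-0.89) and the epithelial factor Foxn1 (-0.83) did not pass, at limma adjusted p of 0.367, 0.247 and 0.198, and Zbtb46 differed by -0.24 without Tak1-deficient replicate 2.

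**Figure D4:**
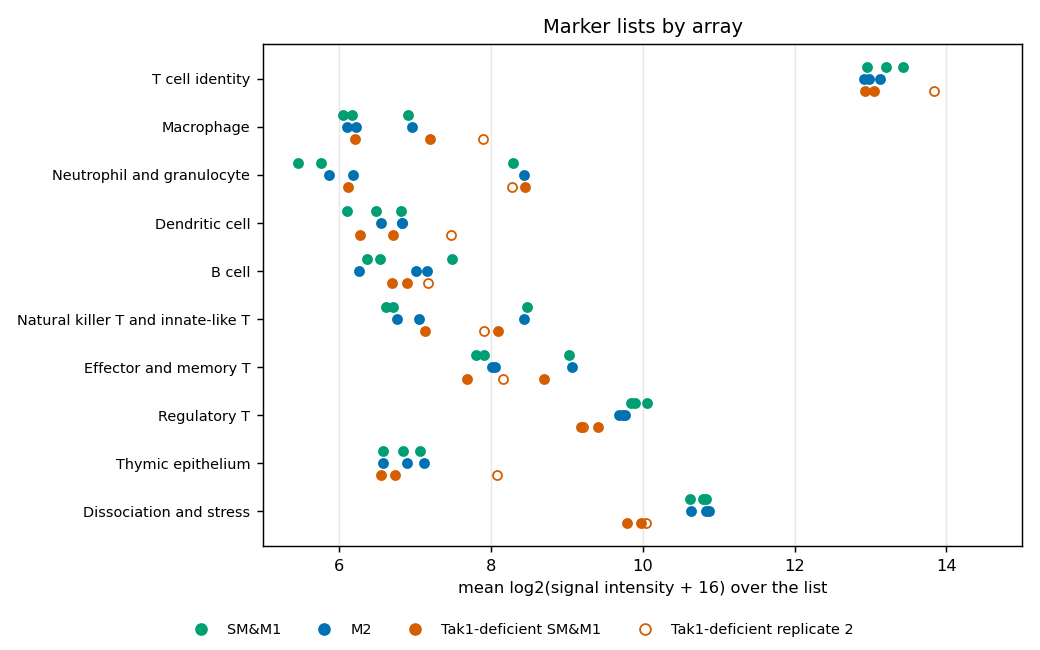
Mean level over each marker list, as log2(signal intensity + 16) on the horizontal axis, with 1 point per array for wild-type SM&M1 (green), M2 (blue) and Tak1-deficient SM&M1 (orange, replicate 2 open). M2 and Tak1-deficient points overlap for most lists, and they do not for dissociation and stress, at 10.63 to 10.87 against 9.79 to 10.04, or for regulatory T genes, at 9.69 to 9.77 against 9.19 to 9.42.

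Of 10 tested regulatory T genes, 5 were higher in M2 and 1 lower, beside 6.27% and 8.25% of all tested genes. Only 2 were higher without M2 replicate 2 or 3, and 1 with centred arrays. None was called in the fit of the M2 and Tak1-deficient arrays only. Their mean level did not overlap, at 9.69 to 9.77 in M2 and 9.19 to 9.42 in Tak1-deficient arrays, and its part in the results was not tested. Foxp3, the defining factor, was below the filter. Nt5e, the ectoenzyme CD73, was 8.35, 8.32 and 8.39 in M2 and 4.70, 4.92 and 7.12 in Tak1-deficient cells, higher by 2.77 ± 0.51 (limma adjusted p = 0.00305). It was higher by 3.54 without Tak1-deficient replicate 3 and differed by -0.20 at pseudocount 1, which selects another probe set for it. Gpr83, an orphan receptor, was 9.36, 9.73 and 9.71 against 11.81, 10.42 and 11.75, a difference of -1.73 ± 0.33 (limma adjusted p = 0.00354). Neither overlapped. Ikzf4, which encodes the factor EOS, was higher by 1.03 (limma adjusted p = 0.0124) and did not pass without M2 replicate 2 (0.0530) or 3 (0.0529), nor with centred arrays (0.0753). Of 6 tested γδ T genes, 2 were lower in M2, beside 8.25% of all tested genes, or 1 without M2 replicate 2 or 3. Etv5, an ETS factor, was 7.21, 6.03 and 6.24 in M2 and 10.37, 9.11 and 10.06 in Tak1-deficient cells, a difference of -3.36 ± 0.39 (limma adjusted p = 0.000120), and -1.88 when its probe sets were averaged. Its means of 9.26 in PostDP and 8.80 in wild-type SM&M1 cells were nearer to the Tak1-deficient than to the M2 level. Sox13, an HMG-box factor, was lower by 1.67 (limma adjusted p = 0.0160) and did not pass without M2 replicate 2 (0.0752) or 3 (0.0652). Of 20 tested effector and memory genes, 5 were higher and 1 lower (2 lower without Tak1-deficient replicate 2), beside 6.27% and 8.25% of all tested genes. Among them Lgals1, a galectin, was higher by 1.42 ± 0.24 (limma adjusted p = 0.00169). Anxa2, the member lower in M2, overlapped between the groups, differed by -1.54 (limma adjusted p = 0.0201), and did not pass without M2 replicate 2 (0.0860) or 3 (0.0908) or when its probe sets were averaged (-0.64). Of 11 tested natural killer T and innate-like genes, Il2rb was the 1 called, but levels varied within the groups. The mean over 12 measured genes was 8.44, 6.77 and 7.06 in M2 and 7.14, 7.91 and 8.09 in Tak1-deficient arrays. Over the 20 effector and memory genes it was 9.075, 8.01 and 8.06 against 7.69, 8.16 and 8.70. The part of such cells in the results was not tested.

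Omitting the filter, quantile normalization and omitting wild-type SM&M1 arrays ended only named calls already given as unsteady. A fit of only the M2 and Tak1-deficient arrays ended 45 of the 87 named calls. Among them were genes given above without such a limit, with limma adjusted p of 0.0955 for Cd24a, 0.0514 for Cd8a and 0.0501 for Afdn. The survival and regulatory T lists had no call in that fit, so Pim1, Bcl2l11, Ripk3, Tnfrsf1a, Nt5e and Gpr83 were also among them. In that fit, beside 1.55% and 0.994% of all tested genes, the late maturation list had 9 calls higher and 0 lower. The double-positive and semi-mature list had 0 and 3, the NF-κB pathway list 3 and 0, and the NF-κB target list 2 and 0. The T cell receptor and MAP kinase list had 2 and 1, MHC class I 3 and 0, and cytokine receptors 1 and 0. Interferon signalling had 2 and 0, chemokine and adhesion receptors 3 and 2, and lineage factors 1 and 1. Without the filter on low values, Cd4 (0.0608), Cd27 (0.0665), Bcl2l1 (0.0505), Dusp2 (0.0526), Nr4a2 (0.0743) and Irf7 (0.0636) did not pass in limma. With quantile normalization Nr4a2 (0.0531), Irf7 (0.0606) and Il10ra (0.153) did not, and without the wild-type SM&M1 arrays in the fit Cd27 (0.0632), Nr4a2 (0.0779) and Irf7 (0.0636) did not.

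The place of wild-type SM&M1 cells was read from their levels for the named genes, as a description. Of 87 named genes that passed, 51 were higher in M2 and 36 lower. Most named genes were chosen for large differences between M2 and Tak1-deficient cells. An SM&M1 mean between the means of those groups was therefore likely in advance, and no share over all called genes was computed. The SM&M1 mean lay between the M2 and Tak1-deficient means in 47 of the 51 and 32 of the 36. Of the other 4 of the first kind, Map3k7, Cd4, Tnfrsf1b and Hspa1b had an SM&M1 mean above that of M2. Of those lower in M2, Gdpd3 and Il10ra had an SM&M1 mean below that of M2, and Nab2 and Bcl2l11 had one above that of Tak1-deficient cells. Both distances share the SM&M1 arrays and are given side by side with no test between them. For Pdlim4, M2 was 3.70 above SM&M1 and Tak1-deficient cells 1.73 below it, and for Dapl1 the distances were 3.51 and 0.85 in the same sense. In Chl1, M2 was 2.98 below SM&M1 and Tak1-deficient cells 0.38 above it. For these genes most of the span lay between SM&M1 and M2. Jun ran otherwise, with M2 0.56 above SM&M1 and Tak1-deficient cells 3.84 below it. The same was seen for Ifit1, at 0.60 above and 2.33 below, and for Bcl3, at 0.66 above and 1.73 below. In S1pr1 the distances were close to equal, at 2.10 above and 2.53 below.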

How the data were processed

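RNA of sorted mouse thymocytes was amplified in a single round, labelled with biotin and hybridised to 1 array per sample, as the labels' protocols describe. The authors deposited linear intensity values for 45101 probe sets. The sources used here do not name the software or the scaling. The values were analysed as log2(intensity + 16), with no further normalization. Because of the added 16, a fold change understates that of dim genes. Probe sets were named from the platform annotation: 34945 had 1 gene, 932 several and 9160 none. The brightest probe set by mean over 15 arrays stood for each of 18193 genes, and 11871 genes above the array median in at least 3 arrays were tested. Probe sets of the Qa2 genes came from a fit over 25901 probe sets.

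M2 minus Tak1-deficient SM&M1 was tested with limma 3.58.1 (R 4.3.3), two-sided, with all 15 arrays, 1 mean per group, no block, and p-values adjusted by Benjamini-Hochberg across the tested genes; a gene passed at an adjusted p under 0.05. Errors are standard errors of the fit. Groups and replicate numbers came from the labels, which call the samples biological replicates but do not say that each came from a separate animal. Sex-linked genes set Tak1-deficient replicate 2 apart from replicates 1 and 3. P-values reflect only how much these samples vary, and part of that variation may be technical. Their number limits the precision. Named genes were the sort and genotype genes, the 8 largest differences each way among genes passing with and without Tak1-deficient replicate 2, at least 2-fold and not overlapping, up to 4 members of each list each way, and up to 2 of each marker list. Members and lists were chosen with earlier results of these data known. Scripts were tested on simulated data. Alternatives were the groups compared alone, other filters, scalings, pseudocounts, probe set rules, moderation, array weights (which stopped short of their convergence tolerance), a replicate block, and each array left out. Promoter windows are from RefSeq (GRCm38.p6).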

Additional observations from a re-analysis of the deposited data

How the results depend on the processing

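Against 1723 genes called with 15 arrays, a fit of only the M2 and Tak1-deficient arrays called 302, centring each array on its median 842, and leaving out 1 array of these groups at a time between 944 and 2320. Other filters, quantile normalization, the mean of all probe sets, a pseudocount of 1, trend and robust moderation, array weights and the fit without wild-type SM&M1 gave between 1218 and 2539. Same-numbered M2 and Tak1-deficient arrays did not deviate together (correlations of -0.173, -0.152 and -0.242), so the numbers were not taken as pairs. The other groups were not checked in this way. Some genes followed the replicate number in both M2 and wild-type SM&M1 arrays. S100a8 was 10.9, 6.82 and 4.95 in M2 and 10.83, 5.41 and 5.40 in SM&M1. Hspa1b was 9.90, 10.44 and 12.20 in M2 and 10.28, 10.57 and 12.15 in SM&M1. What the replicate number stands for was not tested. With the replicate number as a block, 1640 genes were called in all 15 arrays and 9 in the 6 arrays compared. Of 87 named genes that passed, 71 passed whichever array was left out, 87 passed without Tak1-deficient replicate 2, 76 with centred arrays and 42 in the fit of only the M2 and Tak1-deficient arrays. Il2rb (-0.0228) and Nt5e (-0.204) changed sign at pseudocount 1, which selects another probe set for each. With 3 arrays a group, and dim genes near background, small differences may be missed.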
